A study of Mus musculus with 4 samples.

Results

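The R2TP and TTT chaperone complexes and the kinases they serve were followed here through 10 transcripts: Rpap3 and Pih1d1 of R2TP, Tti1, Tti2 and Telo2 of TTT, and Mtor, Atm, Atr, Prkdc and Smg1 of the PIKK family (phosphatidylinositol 3-kinase-related kinases). They were chosen by gene symbol, through the RefSeq accession that the array files give each probe, and are 10 of 22911 genes named in that way. The cells were RAW264.7, a mouse macrophage line. The 4 groups, all transfected with siRNA, were a siRNA pool against Ruvbl2 with LPS (lipopolysaccharide from bacterial cell walls, which activates macrophages), the same pool with DMSO, control siRNA with LPS and control siRNA with DMSO. In the titles of the Ruvbl2 samples the gene's name lacks a letter, so the target was read from the series design. The labels name electroporation and a transfection reagent without tying either to these samples. How much LPS was given, and for how long, is not stated in the sources used here. The siRNA pool acted on a whole cell population, so the measured level is an average over cells with more and less of the target, and fewer transcribing cells cannot be told apart from less RNA per cell.

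R2TP is built from the ATPases RUVBL1 and RUVBL2 with the adaptors RPAP3 and PIH1D1, and it works with the chaperone HSP90 to assemble large protein complexes. Its adaptor PIH1D1 recognises TELO2 phosphorylated by casein kinase 2, and TELO2 brings in TTI1, TTI2 and a newly made PIKK. The kinases handled in this way include mTOR, which senses nutrients and growth factors, ATM, ATR and DNA-PKcs (the product of Prkdc), which respond to DNA damage, and SMG1, which phosphorylates UPF1 in nonsense-mediated mRNA decay. This handling acts on the proteins, whereas the arrays measured mRNA.

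The RefSeq table (build GRCm38.p6) held a promoter for 8 of the 10 members, all but Tti2 and Prkdc. The 250 bases before the start site are shown 5′ to 3′ on the gene's own strand for 5 members. Of these, 3 are kinase genes whose signal was lower with Ruvbl2 siRNA under DMSO. The other 2 are chaperone genes that differed by under 1.2-fold in each comparison on their brightest probes, without spike-in centring. Telo2 also had a promoter and stayed under that size, but is not shown. The 5 windows are thus examples and not a comparison of kinase genes with chaperone genes. Capitals mark matches, on either strand, to 6 motifs searched: the CCAAT box (CCAAT), GC box (GGGCGG), ETS core (CCGGAAG), CRE core (TGACGTCA), E-box (CACGTG) and E2F motif (TTTGGCGC).
Mtor: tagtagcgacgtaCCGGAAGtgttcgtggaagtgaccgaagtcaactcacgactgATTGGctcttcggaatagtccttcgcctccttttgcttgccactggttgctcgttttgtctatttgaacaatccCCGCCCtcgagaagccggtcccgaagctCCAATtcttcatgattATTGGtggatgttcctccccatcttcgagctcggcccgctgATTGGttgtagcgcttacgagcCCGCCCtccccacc
Atm: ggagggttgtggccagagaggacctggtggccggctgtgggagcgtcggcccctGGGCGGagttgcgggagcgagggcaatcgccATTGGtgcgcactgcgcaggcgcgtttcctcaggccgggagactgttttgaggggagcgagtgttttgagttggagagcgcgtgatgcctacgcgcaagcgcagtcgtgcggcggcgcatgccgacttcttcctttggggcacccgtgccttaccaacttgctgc
Atr: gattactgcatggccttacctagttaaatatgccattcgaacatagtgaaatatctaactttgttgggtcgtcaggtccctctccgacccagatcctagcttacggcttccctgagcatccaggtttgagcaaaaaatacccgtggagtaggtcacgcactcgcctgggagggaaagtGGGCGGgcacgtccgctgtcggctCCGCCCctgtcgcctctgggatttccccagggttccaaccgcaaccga
Rpap3: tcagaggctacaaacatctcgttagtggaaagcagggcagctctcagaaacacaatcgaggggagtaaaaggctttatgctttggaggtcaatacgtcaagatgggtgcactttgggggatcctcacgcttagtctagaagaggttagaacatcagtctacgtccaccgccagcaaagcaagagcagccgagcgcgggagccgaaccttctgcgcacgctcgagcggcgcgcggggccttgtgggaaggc
Tti1: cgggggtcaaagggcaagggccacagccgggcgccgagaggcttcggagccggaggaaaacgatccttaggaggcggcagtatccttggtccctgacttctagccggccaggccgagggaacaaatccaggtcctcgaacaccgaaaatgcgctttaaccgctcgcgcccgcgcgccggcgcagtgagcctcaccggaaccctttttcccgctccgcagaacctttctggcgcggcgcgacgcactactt
The windows are chr4:148448332-148448581 (plus strand) for Mtor, chr9:53536672-53536921 (minus) for Atm, chr9:95857347-95857596 (plus) for Atr, chr15:97705823-97706072 (minus) for Rpap3 and chr2:158028435-158028684 (minus) for Tti1. No match overlapped another. The Mtor window held 4 CCAAT boxes, 2 GC boxes and 1 ETS core. The Atm window held 1 CCAAT box and 1 GC box, the Atr window held 2 GC boxes, and the Rpap3 and Tti1 windows held none of the 6 motifs. Of 32851 promoter windows of the same length, 33.8% held a CCAAT box, 32.7% a GC box and 6.91% the ETS core. The other motifs, found in none of the 5 windows, were in 1.55% (CRE core), 6.02% (E-box) and 0.417% (E2F) of all windows.

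Each group was 1 array, and all 4 lay on 1 slide, so there is no replicate error, and no p-value or SD between samples is given. A level here is a probe's log2 processed signal relative to the 75th percentile of its array, and a difference is between 2 levels of the same probe. Within an array, 300 probes printed 10 times gave a technical SD of a log2 difference of 0.06 at levels of 4 and above, 0.12 between -2 and 4, 0.27 between -4 and -2 and 0.62 below -4. The scanner's own error model gave a wider 0.20 for each member's brightest probe. Ruvbl2 itself was lower with Ruvbl2 siRNA by 0.40 under LPS and 0.34 under DMSO on its brighter probe. That is 1.32-fold and 1.26-fold, and 9.36% and 6.42% of all genes compared were as low or lower. Its other, dimmer probe, with a technical SD of 0.27, was at -0.12 under LPS and -0.55 under DMSO. Ruvbl1 differed by 0.14 and 0.00. Between 54.1% and 55.0% of spots were well above background on each array, no spot of the 4 arrays was saturated, and each of 7 macrophage markers was detected above background on every array. Of the markers of other cell types, 2 of 3 for T cells, 1 of 4 for fibroblasts, 0 of 4 for B cells and 0 of 3 for epithelium were. The LPS-induced genes Nos2 and Tnf were higher with LPS by 4.63 and 2.00 with Ruvbl2 siRNA and by 5.61 and 1.97 with control siRNA. The 7 spike-in probes (foreign RNA added for calibration) had a median level of 3.95 on the array for Ruvbl2 siRNA with DMSO, against 3.59 to 3.64 on the others, so values that use that array were also centred on the spike-ins, as given where the reading changes. The Ruvbl2 siRNA arrays were in 1 row of the slide and the control arrays in the other, so siRNA and slide row cannot be told apart.

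The 10 members had 18 probes, of which 16 were well above background on every array. Of the members, 7 had more than 1 probe. The plot of levels by array shows them all. Where 1 value stands for a gene, it is that of the probe with the highest mean level.

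**Figure D1:**
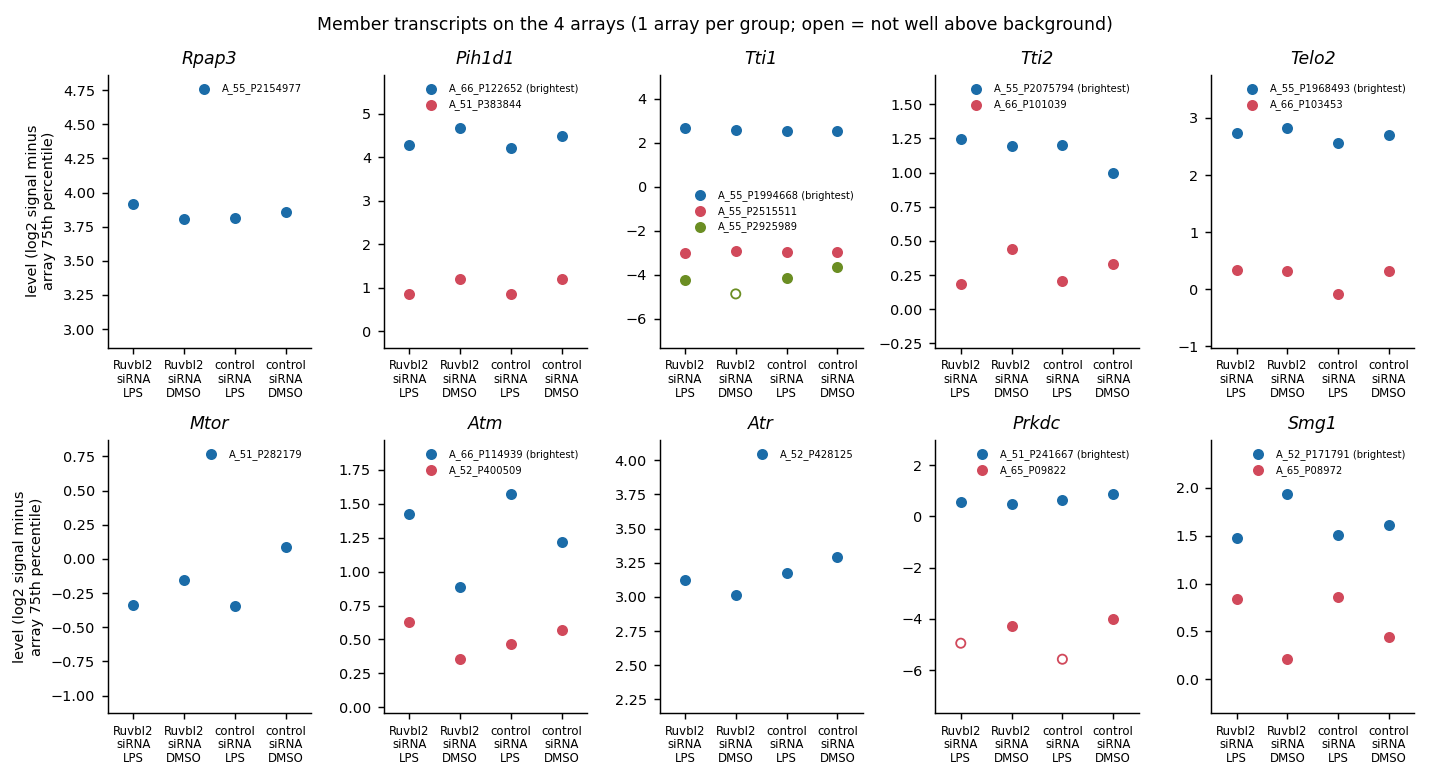
Level of each member's probes on the 4 arrays (y axis: log2 signal relative to the 75th percentile of that array; each panel has its own axis; colours are probes of the same gene; open circles were not well above background). Rpap3 stays between 3.81 and 3.92, while the brightest Atm probe is lowest, at 0.89, with Ruvbl2 siRNA and DMSO.

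Of the R2TP adaptors, Rpap3, whose product binds HSP90, had levels of 3.92 and 3.81 with Ruvbl2 siRNA under LPS and DMSO, against 3.81 and 3.86 with control siRNA. Its 4 levels spanned 0.11, under the technical SD of 0.12 for a difference. With spike-in centring Rpap3 was at 0.48 for LPS with Ruvbl2 siRNA, beside a median of 0.33 for all genes. For siRNA under DMSO it was then at -0.36, beside -0.27. Pih1d1, the adaptor that reads phosphorylated clients, had levels of 4.28 and 4.66 with Ruvbl2 siRNA under LPS and DMSO, against 4.20 and 4.49 with control siRNA, on its brightest probe. Its other probe had 0.86 and 1.19 with Ruvbl2 siRNA under LPS and DMSO, against 0.86 and 1.21 with control siRNA. On both Pih1d1 probes the LPS array was lower than the DMSO array with each siRNA. With spike-in centring the pair with Ruvbl2 siRNA differed by only -0.01 on the brightest probe and 0.03 on the other.

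The TTT transcripts differed little between arrays on their brightest probes, without spike-in centring. Tti1, a scaffold of TTT, had levels of 2.66 and 2.60 with Ruvbl2 siRNA under LPS and DMSO, against 2.55 and 2.54 with control siRNA. With Ruvbl2 siRNA it was higher by 0.11 under LPS and 0.07 under DMSO, which is less than the technical SD of 0.12. With spike-in centring the value under DMSO turned to -0.25, and LPS minus DMSO with Ruvbl2 siRNA was 0.42. The medians of all genes were then -0.27 and 0.33. The second Tti1 probe stayed between -3.03 and -2.91, and the dimmest was not well above background with Ruvbl2 siRNA and DMSO, where it was at least 2.26-fold lower than with control siRNA and DMSO. That bound was set against the lowest signal well above background and rests on levels where the technical SD was 0.62.

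Tti2, which binds TTI1, had levels of 1.250 and 1.195 with Ruvbl2 siRNA under LPS and DMSO, against 1.205 and 0.996 with control siRNA. Its other probe had 0.19 and 0.44 with Ruvbl2 siRNA under LPS and DMSO, against 0.21 and 0.33 with control siRNA. The brightest Tti2 probe was lowest on the control DMSO array, whereas the other was lower on both LPS arrays. With spike-in centring the array for Ruvbl2 siRNA with DMSO was instead the lowest on both Tti2 probes. Telo2, which binds the kinases and is the target of casein kinase 2, had levels of 2.74 and 2.82 with Ruvbl2 siRNA under LPS and DMSO, against 2.55 and 2.70 with control siRNA. Its other probe had 0.34 and 0.32 with Ruvbl2 siRNA under LPS and DMSO, against -0.08 and 0.32 with control siRNA. The control LPS array was the lowest of the 4 on both Telo2 probes. With spike-in centring the brightest Telo2 probe was instead lowest with Ruvbl2 siRNA and DMSO.

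Among the kinases, Mtor had levels of -0.34 and -0.15 with Ruvbl2 siRNA under LPS and DMSO, against -0.35 and 0.09 with control siRNA. The LPS arrays lay within 0.01 of each other, and each was below the DMSO array with the same siRNA. With spike-in centring LPS minus DMSO was 0.18 with Ruvbl2 siRNA and -0.38 with control siRNA, so that order rests on the centring. Atm, the kinase activated by double-strand breaks, had levels of 1.43 and 0.89 with Ruvbl2 siRNA under LPS and DMSO, against 1.57 and 1.22 with control siRNA. Its other probe had 0.63 and 0.35 with Ruvbl2 siRNA under LPS and DMSO, against 0.46 and 0.57 with control siRNA. Both Atm probes were lowest with Ruvbl2 siRNA and DMSO, but they differed in which array was highest.

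Atr, the kinase of replication stress, had levels of 3.12 and 3.01 with Ruvbl2 siRNA under LPS and DMSO, against 3.17 and 3.29 with control siRNA. Ruvbl2 siRNA minus control siRNA was -0.05 for Atr under LPS, within the technical SD of 0.12, and -0.28 under DMSO. Prkdc, whose product joins broken DNA ends with the Ku proteins, had levels of 0.55 and 0.48 with Ruvbl2 siRNA under LPS and DMSO, against 0.63 and 0.89 with control siRNA. For Prkdc the same difference was -0.08 under LPS, also within the technical SD, and -0.41 under DMSO. The other Prkdc probe was well above background on the DMSO arrays only, at -4.29 with Ruvbl2 siRNA and -4.01 with control siRNA. Set against the lowest signal well above background, it was at least 1.44-fold lower with LPS under Ruvbl2 siRNA and at least 1.76-fold lower under control siRNA. Both bounds rest on levels where the technical SD was 0.62. Read without that limit, the differences were -0.65 and -1.55, and -0.28 and -1.50 with spike-in centring, so the first depends on the centring.

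Smg1 had levels of 1.47 and 1.94 with Ruvbl2 siRNA under LPS and DMSO, against 1.50 and 1.61 with control siRNA, on its brightest probe. Its other probe had 0.84 and 0.21 with Ruvbl2 siRNA under LPS and DMSO, against 0.86 and 0.44 with control siRNA. The array for Ruvbl2 siRNA with DMSO was thus the highest of the 4 on 1 Smg1 probe and the lowest on the other, so no direction is given for this gene. Both probes carry an Smg1 accession, and their sequences and positions in the transcript were not used here.

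The first comparison was of Ruvbl2 siRNA with control siRNA, for the transcripts of the R2TP partners and kinase clients of the targeted gene. Under DMSO, 4 of the 5 kinases were lower with Ruvbl2 siRNA on the brightest probe: Prkdc by 0.41, Atm by 0.33, Atr by 0.28 and Mtor by 0.24 on the log2 scale. Prkdc was 1.33-fold lower, and 4.47% of all genes compared were as low or lower. For Atm that share was 6.75%, for Atr 9.17% and for Mtor 11.1%. Each difference was over the technical SD of 0.12 and over the scanner's error of 0.20.

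Smg1 was the fifth kinase, at 0.33 on its brightest probe and -0.23 on the other. Of the 8 kinase probes, 7 were below 0, with a median of -0.26, where 58.4% of all genes were above 0. The dimmest, the second Prkdc probe, was at -0.28 with a technical SD of 0.62, so its sign is uncertain. Past 1.2-fold (0.26 on the log2 scale) under DMSO, 1 of the 10 members was higher and 3 were lower with Ruvbl2 siRNA, beside 15.0% and 9.93% of all genes. The 1 higher was Smg1, counted by its brightest probe although its probes disagree. Mtor, at -0.24, lay just inside that size.

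The chaperones did not share the lower values under DMSO. Their 5 differences, Ruvbl2 siRNA minus control siRNA, ran from -0.05 for Rpap3 to 0.20 for Tti2, with a median of 0.11. The median of the kinases was -0.28 and that of all genes compared 0.04. With spike-in centring all genes shifted to a median of -0.27, the chaperone median turned to -0.20 and the kinase median was -0.59. Mtor, Atm, Atr and Prkdc kept values below 0 under all the settings tried, and Smg1 was at 0.02 with spike-in centring. No member passed 2-fold, beside 0.864% of all genes under DMSO.

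Under LPS the same kinases lay closer to the control. With Ruvbl2 siRNA minus control siRNA, Mtor differed by 0.01, Atr by -0.05, Prkdc by -0.08, Atm by -0.15 and Smg1 by -0.03 on the brightest probes. None of the 10 members passed 1.2-fold, beside 15.9% of all genes higher and 17.3% lower, or 2-fold, beside 1.74% of all genes. The 5 chaperones were all above 0, from 0.05 for Tti2 to 0.18 for Telo2, and 50.8% of all genes were above 0. All 5 values were under the scanner's error of 0.20, and of the 10 chaperone probes 7 were above 0 and 3 below. The second Telo2 probe, at 0.42, was the 1 member probe past 1.2-fold. The LPS and DMSO comparisons use different arrays, and the plot of siRNA differences sets them side by side.

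**Figure D2:**
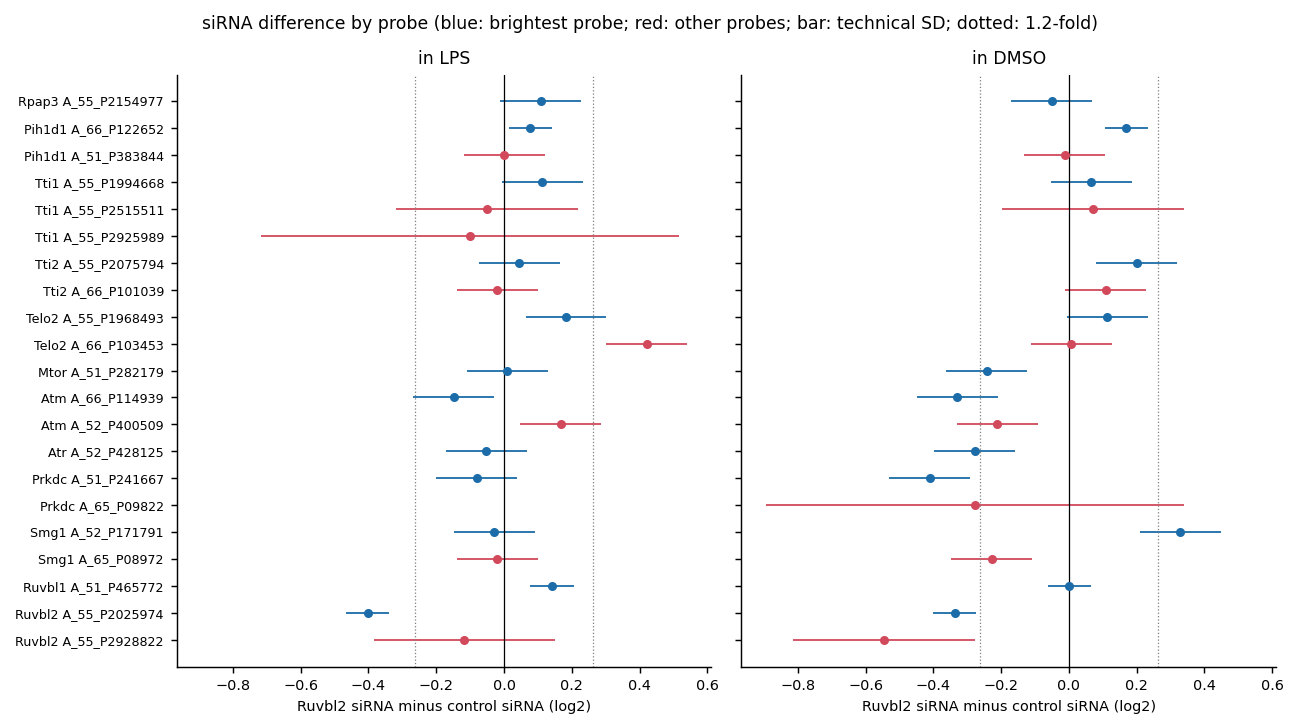
Ruvbl2 siRNA minus control siRNA by probe (x axis: log2 difference; left under LPS, right under DMSO; blue the brightest probe of a gene, red its other probes; bars are 1 technical SD to each side; dotted lines 1.2-fold). Under DMSO the brightest probes of Mtor, Atm, Atr and Prkdc lie between -0.41 and -0.24, and under LPS between -0.15 and 0.01.

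The next comparison was of LPS with DMSO, first with Ruvbl2 siRNA. Atm was higher with LPS by 0.54, or 1.45-fold, and its other probe by 0.28. Pih1d1 was lower with LPS by 0.38, and its other probe by 0.34. Smg1 was at -0.46 on its brightest probe and 0.63 on the other, so its probes had opposite signs. The other members lay between -0.18 for Mtor and 0.11 for Atr and Rpap3. In all, 6 of 10 members were above 0 with Ruvbl2 siRNA, beside 46.2% of all genes.

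Past 1.2-fold with Ruvbl2 siRNA, 1 member was higher and 2 were lower with LPS, beside 20.8% and 24.5% of all genes, with Smg1 among the lower by its brightest probe. No member passed 2-fold, beside 4.84% of all genes. The spike-ins were lower with LPS by a median of 0.33 in this pair. With spike-in centring the median of all genes was 0.33, Atm was at 0.91, Pih1d1 at -0.01 and Mtor, which changed sign, at 0.18.

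With control siRNA, Mtor was lower with LPS by 0.44, or 1.35-fold, and 13.1% of all genes were as low. Pih1d1 was lower by 0.29, and by 0.35 on its other probe. Atm was higher by 0.36 on its brightest probe, whereas its other probe was at -0.10. Prkdc, at -0.26, lay just inside 1.2-fold. In all, 3 of 10 members were above 0 with control siRNA, beside 6361 of the 12724 genes compared.

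Past 1.2-fold with control siRNA, 1 member was higher and 2 were lower with LPS, beside 24.5% and 23.7% of all genes. No member passed 2-fold, beside 6.80% of all genes. Of the 10 chaperone probes, 8 were below 0 and 4 of these past 1.2-fold: both Pih1d1 probes, the second Telo2 probe at -0.40 and the dimmest Tti1 probe at -0.49. The spike-ins differed by -0.07 in this pair, and with spike-in centring the median of all genes was 0.05.

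**Figure D3:**
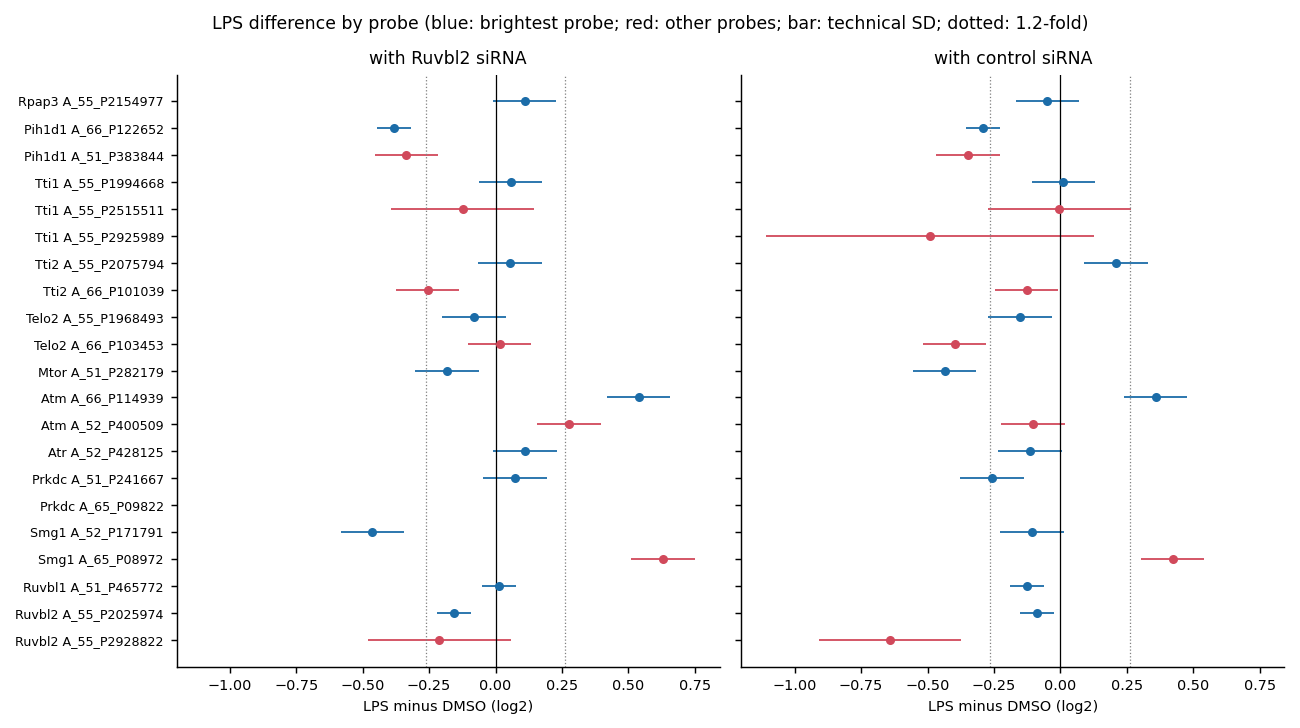
LPS minus DMSO by probe (x axis: log2 difference; left with Ruvbl2 siRNA, right with control siRNA; blue the brightest probe of a gene, red its other probes; bars are 1 technical SD to each side; dotted lines 1.2-fold; differences known only as a bound are left out). Both Pih1d1 probes lie between -0.38 and -0.29 in both panels, and the 2 Smg1 probes lie on opposite sides of 0.

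The difference between the LPS effects, Ruvbl2 siRNA minus control siRNA, used all 4 arrays. It was 0.33 for Prkdc, 0.25 for Mtor, 0.23 for Atr, 0.18 for Atm and -0.36 for Smg1 on the brightest probes. The scanner's error for this quantity was 0.29, so Prkdc and Smg1 exceeded it, and the second Smg1 probe was at 0.21. Past 1.2-fold, 1 member was higher and 1 was lower, Smg1 by its brightest probe, beside 14.2% and 20.1% of all genes, and none passed 2-fold, beside 1.69%. Above 0 were 7 of the 10 members, beside 45.0% of all genes. The median was 0.23 for the kinases, 0.05 for the chaperones and -0.03 for all genes. With spike-in centring all genes shifted to 0.28, the kinases to 0.54 and the chaperones to 0.36. This difference shares its arrays with the comparisons above and adds no independent evidence to them.

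Probes of the same gene gave partly different answers. In the siRNA comparison under DMSO, 5 of 7 other probes had the sign of the brightest, and under LPS 3 of 7 had. For LPS against DMSO, 2 of 6 had the same sign with Ruvbl2 siRNA and 2 of 7 with control siRNA. In the difference of the LPS effects, 3 of 6 had. Among the members with several probes, some had 1 sign on all the probes compared and at least 1 of these past 1.2-fold. For siRNA these were Telo2 (higher) under LPS and Atm and Prkdc (lower) under DMSO. For LPS they were Pih1d1 (lower) in both siRNA groups, Atm (higher) with Ruvbl2 siRNA and Telo2 (lower) with control siRNA. In the difference of the LPS effects they were Atm and Telo2, both above 0. The second Prkdc probe, at -0.28 under DMSO, had a technical SD of 0.62, so its sign is uncertain. With spike-in centring the Pih1d1 probes were at -0.01 and 0.03 for LPS with Ruvbl2 siRNA.

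Atm was the only member whose brightest probe spanned at least 0.5 over the 4 arrays, at 0.69. Its nearest profiles among 11633 genes, each centred on its own mean, were Trafd1, Orc4 and Cenpj, at root mean square distances of 0.02, 0.03 and 0.03 over the 4 arrays. Within the technical SD of Atm lay 470 genes, so 4 arrays do not single out these 3.

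Partners of the members were taken from lists of 72 genes, of which 70 were measured. The lists hold the HSP90 machinery, casein kinase 2, prefoldin-like and adaptor partners of R2TP, the PIKK-related protein TRRAP and the known partners of each kinase. The lists were compared by counts and medians on each gene's brightest probe.

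The partners of mTOR that could be compared were mostly lower with LPS. Prr5l could not, as it was well above background on the LPS arrays only, where its level was higher. With Ruvbl2 siRNA, 10 of 11 compared were below 0, beside 6813 of 12657 genes. Past 1.2-fold 8 were lower, with a list median of -0.36, where 24.5% of all genes were lower past that size. With control siRNA, 9 of 11 were below 0, beside 6363 of 12724 genes, and the list's median was -0.27. Past 1.2-fold 6 were lower and 1 was higher, beside 23.7% of all genes lower and 24.5% higher. Tsc1, an inhibitor of mTORC1, was lower with LPS by 0.57 with Ruvbl2 siRNA and by 0.64 with control siRNA. Mlst8, a subunit of both mTOR complexes, was lower by 0.46 with Ruvbl2 siRNA and by 0.80 with control siRNA.

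Mapkap1, the mTORC2 subunit SIN1, was at -0.69 with Ruvbl2 siRNA and -0.78 with control siRNA, though its other 2 probes did not follow. Akt1s1, which encodes the mTORC1 inhibitor PRAS40, was lower with LPS by 0.62 with Ruvbl2 siRNA, and by 0.24 with control siRNA. Tbc1d7, the third subunit of the TSC complex, was the 1 compared gene higher past 1.2-fold, by 0.31 with control siRNA. Without the filter on dim probes, which adds Prr5l, 1 partner was higher past 1.2-fold with Ruvbl2 siRNA, beside 19.2% of all genes. With control siRNA 2 were, beside 21.6%. With spike-in centring 2 of the 11 were higher and 1 was lower past 1.2-fold with Ruvbl2 siRNA, beside 58.6% and 6.13% of all genes. The median was then 0.01, beside 0.33 for all genes. With control siRNA 5 were lower with that centring, beside 19.6% of all genes, and the median was -0.21.

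With Ruvbl2 siRNA under DMSO, 9 of the 11 mTOR partners compared were above 0, beside 58.4% of all genes. Past 1.2-fold 3 were higher, beside 15.0% of all genes, and the list's median was 0.08. Akt1s1 was highest, by 0.50 and by 0.45 on its other probe. With spike-in centring 0 were higher and 4 lower, beside 2.36% and 51.0% of all genes. The median was then -0.23, beside -0.27 for all genes, and Akt1s1 was at 0.19. The direction of this list under DMSO thus rests on the centring. Under LPS 7 of 12 were above 0, beside 50.8% of all genes, with a median of 0.11. Past 1.2-fold there, 2 were higher and 1 was lower, beside 15.9% and 17.3% of all genes.

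Mlst8 had levels of 2.58 and 3.04 with Ruvbl2 siRNA under LPS and DMSO, against 1.84 and 2.64 with control siRNA. It was higher with Ruvbl2 siRNA by 0.75 under LPS and 0.41 under DMSO, and with spike-in centring by 0.75 and 0.09. Prr5l, an mTORC2 partner, was the 1 partner past 2-fold in any comparison, at levels of -4.62 with Ruvbl2 siRNA and -2.85 with control siRNA under LPS. It was lower by 1.77 at levels where the technical SD is large. Under DMSO it was not well above background, at -6.98 with Ruvbl2 siRNA and -7.17 with control siRNA. The lowest signals well above background on those arrays were at -4.83 and -5.15. Its higher level with LPS is thus known only as a bound.

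The partners of SMG1 in nonsense-mediated decay were higher with Ruvbl2 siRNA under LPS. All 8 compared were above 0 and 6 passed 1.2-fold, with a median of 0.36 and a range of 0.24 to 0.43, where 15.9% of all genes were higher past that size and the median of all genes was 0.00. Upf1, the helicase that SMG1 phosphorylates, had levels of 2.97 and 3.23 with Ruvbl2 siRNA under LPS and DMSO, against 2.54 and 2.93 with control siRNA. Smg5, which helps remove that phosphate, had 4.75 and 5.08 with Ruvbl2 siRNA under LPS and DMSO, against 4.33 and 4.83 with control siRNA. Smg9, which binds SMG1 itself, had 2.96 and 3.09 with Ruvbl2 siRNA under LPS and DMSO, against 2.56 and 3.04 with control siRNA. For all 3 the control LPS array was the lowest of the 4.

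With Ruvbl2 siRNA under LPS, Upf1 was higher by 0.43, Smg5 by 0.42 and Smg9 by 0.40. Under DMSO the same list had a median of 0.09, with 1 of 8 higher past 1.2-fold, Upf1 at 0.29, beside 15.0% of all genes. With spike-in centring that median turned to -0.22, with 0 higher and 3 lower, beside 2.36% and 51.0% of all genes. Under LPS the list's median was 0.37 with that centring, and 6 were higher, beside 16.2% of all genes. For LPS against DMSO the list's median was -0.11 with Ruvbl2 siRNA, and 0.26 with spike-in centring, so its direction rests on the centring. With control siRNA it was -0.31, and 4 of 8 were lower past 1.2-fold, beside 23.7% of all genes. These comparisons share the LPS arrays. Smg8, which binds SMG1 together with SMG9, was not well above background on any array. Smg1 itself, at -0.03 on its brightest probe under LPS, was not among the higher genes.

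**Figure D4:**
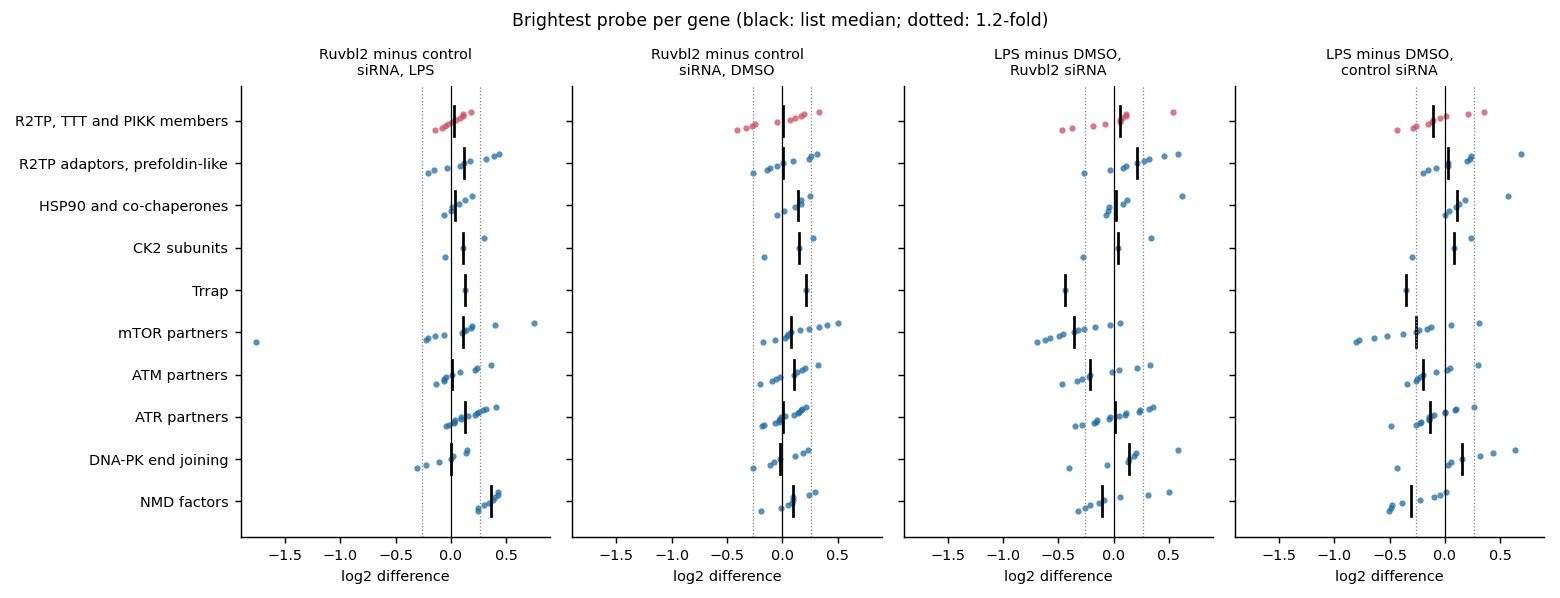
Differences of the partner genes by list, 1 dot per gene on its brightest probe, in the 4 pairwise comparisons (axis: log2 difference; the bar is the list's median). The nonsense-mediated decay genes lie between 0.24 and 0.43 for Ruvbl2 siRNA minus control siRNA under LPS, and the mTOR partners have medians of -0.36 with Ruvbl2 siRNA and -0.27 with control siRNA for LPS minus DMSO.

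Of the 14 ATR partners, 12 were above 0 with Ruvbl2 siRNA under LPS beside 50.8% of all genes, and 3 passed 1.2-fold, beside 15.9%: Clspn by 0.40, Hus1 by 0.32 and Rpa2 by 0.29. The other Clspn probe was at -0.04. These encode claspin, part of the 9-1-1 clamp and part of the RPA complex. Under DMSO none of the 14 passed 1.2-fold, beside 15.0% of all genes higher and 9.93% lower, and the median was 0.00. With spike-in centring 8 were lower, beside 51.0% of all genes. The median was then -0.31, beside -0.27 for all genes. The 9 ATM partners had a median of 0.01 with Ruvbl2 siRNA under LPS and 0.10 under DMSO, with 1 higher in each, the ubiquitin ligase gene Rnf8 by 0.36 under LPS and H2ax by 0.33 under DMSO, beside 15.9% of all genes under LPS and 15.0% under DMSO. With spike-in centring H2ax was at 0.01 under DMSO and the list's median there was -0.21. Of the 7 DNA-PK and end-joining genes, Dclre1c, which encodes the nuclease Artemis, was lower with Ruvbl2 siRNA by 0.31 under LPS and differed by -0.26 under DMSO, or by -0.57 there with spike-in centring. With LPS it was higher by 0.58 with Ruvbl2 siRNA and by 0.63 with control siRNA.

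Trrap, the PIKK relative without kinase activity, was lower with LPS by 0.44 with Ruvbl2 siRNA and by 0.35 with control siRNA, and was at -0.07 and -0.30 with spike-in centring. Of the 6 HSP90 genes, the inducible Hsp90aa1 alone passed 1.2-fold in any of the 4 pairwise comparisons, without spike-in centring, higher with LPS by 0.62 with Ruvbl2 siRNA and by 0.57 with control siRNA. Of the casein kinase 2 subunits, Csnk2a1 was higher with Ruvbl2 siRNA by 0.30 under LPS and 0.28 under DMSO on its brightest probe. Its other probe was at -0.11 and -0.05, and the brightest was at -0.03 under DMSO with spike-in centring. Of the 9 R2TP adaptor and prefoldin-like genes compared, Pdrg1 was higher with Ruvbl2 siRNA by 0.44 under LPS and 0.32 under DMSO, and by 0.44 and 0.00 with spike-in centring. Uri1, the scaffold of the prefoldin-like module, was at 0.59 and 0.69 for LPS with Ruvbl2 siRNA and with control siRNA, but its other probe was at -0.43 and -0.41.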

How the data were processed

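RNA from 4 samples of RAW264.7 cells, 1 per group, was hybridised in 1 colour to Agilent mouse arrays. Per the file headers, the deposited signal intensity of each spot was background-subtracted by Feature Extraction 11.5.1.1 (11.0 per the submitters' processing notes). The deposited value table equalled this intensity at all 62976 spots (relative tolerance 1e-06). Levels were log2 intensity minus the 75th percentile over 56605 RNA probes, leaving out outlier spots. Probes were named through RefSeq accessions (32994 probes, 22911 genes). A gene was compared where its brightest probe was well above background on both arrays, or on all 4 for the difference of LPS effects. A probe below background in 1 group was given as a bound against that array's lowest signal among probes above background.

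As each group was 1 array, the pairwise comparisons and the difference of LPS effects had no residual degrees of freedom and were not tested. A model that adds siRNA and LPS effects, with 1 such degree left, was not fitted. Sizes of 2-fold and 1.2-fold were counted beside the same share of all genes. The members and lists were chosen with earlier results of these data known. Named were all members, Ruvbl1 and Ruvbl2, up to 3 partners per list and direction with the largest differences past 1.2-fold, and partners past 2-fold. Smg8 was added after its values were seen. A withheld item is not reported here. The 3 nearest profiles were sought where a member spanned 0.5 or more.

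Alternatives were quantile normalization, normexp (offset 50) with quantile normalization, cyclic loess (limma 3.58.1, R 4.3.3), median and spike-in centring, the deposited table, the mean of probes, no filter, and a level of at least -2. The files used held no mean signal column, so normexp used the median signal. Scripts ran in Python 3.11.15 and were tested on simulated data.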

Additional observations from a re-analysis of the deposited data

Results flagged for a closer look

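Some genes moved one way in one setting and the opposite way in the other. With 1 array per group the differences between the effects were not tested. The second Atm probe was at 0.17 for Ruvbl2 siRNA against control siRNA under LPS and at -0.21 under DMSO, a difference of 0.38 between the effects. The other Atm probe was below 0 in both. With spike-in centring the second probe was at 0.17 and -0.52.

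Among the partners, Uxt, of the prefoldin-like module, was at -0.27 for LPS against DMSO with Ruvbl2 siRNA and at 0.20 with control siRNA, a difference of -0.47. Seen as siRNA effects, Uxt was at -0.21 under LPS and 0.26 under DMSO, which is the same difference of -0.47. Clspn, the claspin gene, was at 0.32 for LPS against DMSO with Ruvbl2 siRNA and -0.15 with control siRNA, a difference of 0.47, but its other probe was at 0.42 and 0.26, above 0 in both. Upf2, of the nonsense-mediated decay machinery, was at 0.30 for Ruvbl2 siRNA against control siRNA under LPS and -0.19 under DMSO, a difference of 0.49. Tipin, a replication fork factor, was at 0.09 under LPS and -0.16 under DMSO, a difference of 0.26. Cdc37, a co-chaperone of HSP90, was at -0.07 for LPS against DMSO with Ruvbl2 siRNA and 0.10 with control siRNA, a difference of -0.16, and both of the last differences are below the scanner's error of 0.29.

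These values use the array for Ruvbl2 siRNA with DMSO, on which the spike-ins were bright. With spike-in centring Uxt was at 0.10 for LPS with Ruvbl2 siRNA and 0.25 with control siRNA, and Cdc37 at 0.30 and 0.15, so neither had opposite directions. The siRNA effects on Uxt were then -0.20 under LPS and -0.05 under DMSO, also the same direction. Clspn (0.69 and -0.10), Upf2 (0.31 and -0.50) and Tipin (0.10 and -0.47) kept opposite directions.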

How the results depend on the processing

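The choice that moved most values was centring on the 7 spike-in probes, because these were brighter on the array for Ruvbl2 siRNA with DMSO. With it the member median was 0.42 for LPS with Ruvbl2 siRNA (7 members past 1.2-fold, against 3), -0.30 for siRNA under DMSO and 0.43 for the difference of LPS effects (7 past 1.2-fold, against 2). The median of all partners was 0.33, -0.22 and 0.36 in the same comparisons, and that of all genes 0.33, -0.27 and 0.28. Past 1.2-fold with this centring, 58.6% of all genes were higher and 6.13% lower for LPS with Ruvbl2 siRNA. For the difference of LPS effects 53.1% were higher and 5.37% lower, so the member counts went with a shift of all genes. With the mean of a gene's probes, 1 member passed 1.2-fold for siRNA under LPS, against 0, and Smg1 reversed to 0.083 for LPS with Ruvbl2 siRNA, its probes having opposite signs. With normexp, 1 member passed 1.2-fold in the difference of LPS effects, against 2. Of the 50 member values, the sign turned in 9 with spike-in centring, 6 with the mean of probes, 3 with normexp, 1 each with quantile normalization, cyclic loess and median centring, and 0 with the other alternatives. The other medians over the members and over all partners moved by less than the technical SD, and the other counts of members past 1.2-fold stayed within 1.5 times. Those counts ran from 2 to 4 for LPS with control siRNA (3 as reported) and from 3 to 5 for siRNA under DMSO (4 as reported), and the count was 2 for LPS with Ruvbl2 siRNA with the mean of probes. No paired analysis was possible because each group is 1 array and the labels carry no replicate numbers. Dim probes limit the second Prkdc probe and the dimmest Tti1 probe to bounds.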
